A study of Homo sapiens with 4 samples.

Results

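The ABC transporter genes were followed in A549 cells, a human lung adenocarcinoma line, with and without knockdown of RBM10, a protein that binds RNA and shapes splice choices. Members were the protein-coding genes whose symbol is ABC, a letter from A to G and a digit. Described here are 30 such genes among the 17041 genes of the expression table. A further 13 (ABCA6, ABCA8, ABCA9, ABCA13, ABCB1, ABCB4, ABCB5, ABCB11, ABCC9, ABCC12, ABCD2, ABCG5 and ABCG8) were not listed among those 17041 genes and so were not analysed here. In the splicing table, 8 of 3768 events belonged to 5 of these genes. The study has 4 libraries of polyadenylated RNA. The RBM10 wild-type group has 2 libraries. In the other 2 the cells had been transduced with a lentivirus for 1 RBM10-targeting shRNA (TRCN0000233280) and kept in 1 µg/mL puromycin for 10 to 14 days. No label tells if wild-type cells were given an empty vector or the drug, so knockdown, transduction and selection cannot be told apart. Nor is it said that replicates were separate cultures. Each p-value thus sets the difference between groups against the scatter of these libraries, drawn toward that of other genes or events. That scatter may be technical.

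ABC proteins share a nucleotide-binding domain that uses ATP. Most are membrane proteins that move lipids, drugs, conjugated anions, peptides or haem precursors out of the cell or into an organelle. The ABCE and ABCF proteins have no membrane domain and act on ribosomes. In the lung, ABCA3 loads surfactant lipid into the lamellar bodies of alveolar type II cells, while ABCC1, ABCC2, ABCC3 and ABCG2 are known for the export of drugs and glutathione or glucuronide conjugates.

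The labels were first checked on RBM10. Its level was 35.5 and 40.8 RPKM in wild-type replicates 1 and 2, and 11.6 and 10.9 RPKM in knockdown replicates 1 and 2, where RPKM means reads scaled to gene length and library depth. The knockdown mean was 29.5% of the wild-type mean. Each library was sequenced to about 40000000 read pairs per the labels. Relative depth was inferred from ratios of low deposited values between libraries, not from read counts. By that estimate the depths ranged from 84.5% to 100% of the deepest library. In the labels all 4 libraries carry the same batch date. Of the epithelial and A549 markers, all 7 were at 1 RPKM or more in a group, and KRT8, KRT18, KRT19 and EPCAM rose while AKR1B10 fell. Of 6 fibroblast markers 4 were listed and their summed level went from 0.56 and 0.84 RPKM to 2.11 and 2.01 RPKM, nearly all of it THY1. Of 5 leukocyte markers 2 were listed, with sums of 1.58 and 1.77 RPKM against 3.51 and 3.62 RPKM, nearly all of it CD68. The only listed marker of 4 for endothelium, PECAM1, was at most 0.013 RPKM. The part of these markers in the results below was not tested. In RNA of a whole culture, fewer cells with a transcript and less RNA per cell cannot be told apart.

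Knockdown libraries held more RNA of lipid-transporting ABC genes and less ABCG2, the broad drug exporter, while the most abundant exporters did not pass the test. Of the 30 genes, 20 reached a mean of 1 RPKM in a group and were tested with limma on log2(RPKM + 1) in a fit of 10182 genes. Among these, ABCA1 reached that mean in knockdown only. ABCA1, ABCA2, ABCA3, ABCA7 and ABCB6 rose, ABCG2 and ABCF2 fell, and 13 did not pass. Thus 7 of 20 passed, where 22.3% of all tested genes passed. For each direction the background was 15.3% of genes higher and 7.03% lower. Without knockdown replicate 1, 3 ABC genes rose and 1 fell, and without wild-type replicate 2, 5 rose and 5 fell. The groups did not overlap in 8 genes that were higher in knockdown and 7 that were lower, against 34.3% and 27.3% of all tested genes. The median log2 change was -0.05 over the 20 genes and 0.02 over all tested genes. With quantile normalization 52.5% of all called genes were higher in knockdown, against 68.5% as deposited, and 5 ABC genes were higher and 3 lower. Unless another pseudocount is named, each log2 change below is on the log2(RPKM + 1) scale, which understates the change of genes at low level. Ratios between means and percentages of the wild-type mean are of plain RPKM.

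**Figure D1:**
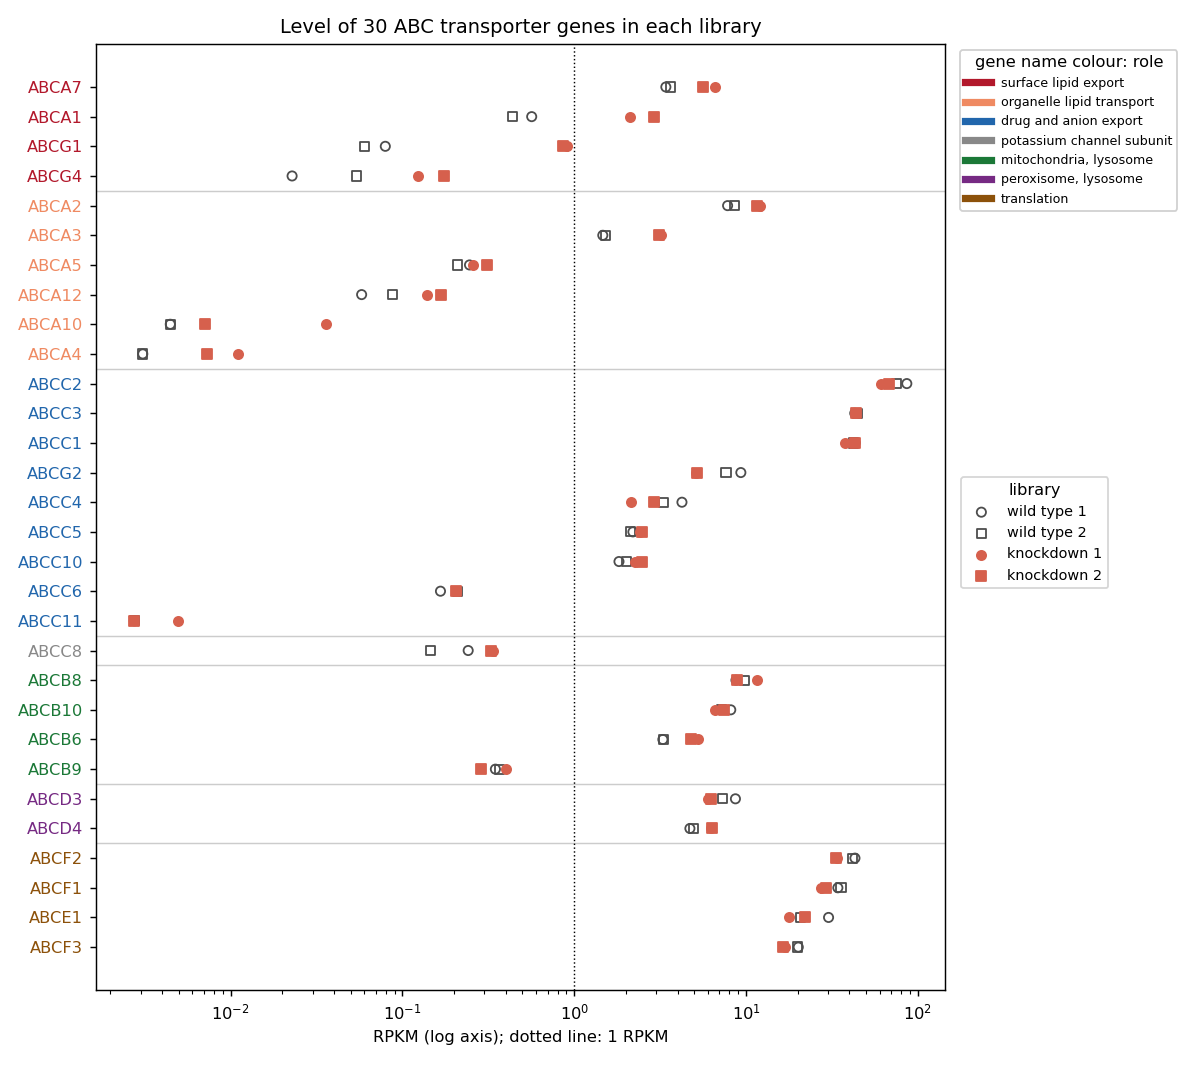
Level in RPKM (log axis) of 30 ABC transporter genes in each of 4 libraries, grouped by role, with open grey symbols for wild type and filled red symbols for knockdown. The knockdown points of ABCA1, ABCA3 and ABCA7 lie to the right of the wild-type points, those of ABCG2 lie to the left, and those of ABCC3 overlap them.

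The 4 exporters of cell-surface lipid in the table, ABCA1, ABCA7, ABCG1 and ABCG4, were higher in both knockdown libraries than in both wild-type libraries. That held for 34.3% of all tested genes, and for 38.1% of the genes below the level tested, among which ABCG1 and ABCG4 fall. ABCA1 passes cholesterol and phospholipid to lipid-poor apolipoproteins. It lies at chr9:104781002-104928237 on the minus strand of hg38. Its level was 0.566 and 0.438 RPKM in wild type and 2.099 and 2.92 RPKM in knockdown. The mean was 0.502 ± 0.0906 (SD, n = 2) against 2.51 ± 0.580 RPKM (SD, n = 2), a ratio of 5.00. The log2 change was 1.22 (SE 0.14), the largest among the tested ABC genes, with a limma adjusted p of 0.000234. ABCA1 reached the level tested in the knockdown group only, so it entered the test through the group where it was high. In the limma fit without a filter its adjusted p was 0.0194. With a pseudocount of 0.1 in place of 1 the log2 change was 2.11.

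ABCG1, which passes cholesterol on to high-density lipoprotein, changed most in ratio but stayed under the level tested. It lies at chr21:42199689-42297244 on the plus strand. Its level was 0.0796 and 0.0602 RPKM in wild type and 0.911 and 0.863 RPKM in knockdown, a ratio of 12.7 between the means. The deposited values of a gene are whole multiples of a step, and if 1 step is 1 read, these values rest on 17, 13, 166 and 178 reads. The wild-type libraries were thus near the low end of the table and the knockdown libraries were far above it. In the limma fit of all 17041 genes without a filter, where 9.07% of genes passed, ABCG1 had a log2 change of 0.82 and an adjusted p of 0.00704. In that fit 7 of the 30 ABC genes passed, without ABCB6. The related ABCG4, an exporter of sterols best known from brain, had 5, 12, 23 and 37 steps in the same order, and its adjusted p in that fit was 0.0755.

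ABCA7, a phospholipid exporter close in sequence to ABCA1, lies at chr19:1040101-1065572 on the plus strand. Its level was 3.42 and 3.64 RPKM in wild type and 6.59 and 5.64 RPKM in knockdown. Both knockdown libraries were above both wild-type libraries, with a log2 change of 0.65 (SE 0.12) and a limma adjusted p of 0.00395.

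Bases before the start of these genes are shown because ABCA1 is a known target of LXR, a sterol-sensing nuclear receptor that binds spaced direct repeats. RefSeq (GRCh38.p14) had promoters for 25 of the 30 genes, in 39 windows, and ABCG1 was among those without an entry. The 250 bases before the start were searched on both strands for an E-box (CACGTG), a GC box (GGGCGG), the core of an antioxidant response element (TGACNNNGC) and a loose LXR-type repeat (2 copies of TNACC with 5 bases between), which was written with the ABCA1 window in view. Capitals mark every match. The windows are chr9:104928156-104928405 on the minus strand for ABCA1, chr19:1039857-1040106 on the plus strand for ABCA7, and chr16:2340729-2340978 on the minus strand for ABCA3.
ABCA1: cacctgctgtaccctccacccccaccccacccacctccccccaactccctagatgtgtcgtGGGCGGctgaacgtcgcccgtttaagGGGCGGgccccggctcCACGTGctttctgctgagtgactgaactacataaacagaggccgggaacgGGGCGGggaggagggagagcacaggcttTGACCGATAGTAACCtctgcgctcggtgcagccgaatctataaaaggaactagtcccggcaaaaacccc
ABCA7: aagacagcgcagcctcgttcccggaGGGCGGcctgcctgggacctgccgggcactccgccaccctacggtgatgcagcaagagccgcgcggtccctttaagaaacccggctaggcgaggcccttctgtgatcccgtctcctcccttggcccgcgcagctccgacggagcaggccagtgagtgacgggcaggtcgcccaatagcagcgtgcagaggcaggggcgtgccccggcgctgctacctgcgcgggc
ABCA3: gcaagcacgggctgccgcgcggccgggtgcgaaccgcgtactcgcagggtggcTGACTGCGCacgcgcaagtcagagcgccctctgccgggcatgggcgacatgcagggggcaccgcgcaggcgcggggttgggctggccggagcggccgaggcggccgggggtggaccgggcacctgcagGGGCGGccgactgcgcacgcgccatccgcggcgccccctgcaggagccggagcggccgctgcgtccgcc
The LXR-type repeat of ABCA1 begins 69 bases before the start and its E-box 147 bases before it. The repeat was in 1 of the 39 ABC windows and in 0.533% of 35116 promoters. Because windows of a gene can overlap and hold the same site, the other motifs were counted by gene and also by window. The E-box was in a window of 7 of the 25 ABC genes and of 7.73% of the 27305 genes with promoters, the GC box in 19 and 46.2%, and the antioxidant core in 9 and 13.2%. A count by gene favours genes with more windows. By window, the E-box was in 8 of the 39 ABC windows and in 6.34% of all promoters. The GC box was in 23 and 42.6%, and the antioxidant core in 9 and 10.9%. The ABCA3 window holds an antioxidant core 197 bases before the start, and the ABCA7 window holds a GC box 225 bases before it. A match of letters is a description and does not show a binding site.

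Several genes that work with ABCA1 and ABCG1 rose. Of 15 listed genes of cholesterol efflux and of LXR targets, 13 were tested, 7 rose and the other 6 did not pass, where 15.3% of all tested genes rose. Their median log2 change was 0.42. The list was chosen with earlier results of these data known, so these counts are a description and not a separate test. APOE, an apolipoprotein that takes up exported lipid, was at 6.84 and 7.22 RPKM in wild type and 24.3 and 24.2 RPKM in knockdown, a log2 change of 1.65 (SE 0.10). NPC2, which carries cholesterol inside lysosomes, was at 23.8 and 25.2 RPKM against 59.8 and 61.3 RPKM. Its membrane partner NPC1 was at 7.92 and 6.53 RPKM against 15.0 and 16.3 RPKM. All 3 genes had separate groups, and LPCAT3, which makes polyunsaturated phospholipid, rose too, with a log2 change of 0.78. The receptors themselves did not pass: the log2 change was 0.10 for NR1H3 (LXR alpha), 0.08 for NR1H2 (LXR beta) and -0.02 for RXRA, their partner. SCARB1, a receptor that exchanges cholesterol with high-density lipoprotein, did not pass with a log2 change of -0.22.

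Both tested lipid transporters of organelles rose with separate groups, where 15.3% of all tested genes rose and 34.3% were higher without overlap. ABCA3 lies at chr16:2275881-2340746 on the minus strand. Its level was 1.47 and 1.52 RPKM in wild type and 3.19 and 3.12 RPKM in knockdown, a ratio of 2.12 between the means. The replicates of each group lay close together and the groups were separate, with a log2 change of 0.74 (SE 0.11) and a limma adjusted p of 0.00127. ABCA2, an endolysosomal protein tied to sterol and sphingolipid handling, lies at chr9:137007227-137028922 on the minus strand. Its level was 7.82 and 8.56 RPKM in wild type and 12.1 and 11.6 RPKM in knockdown, with a log2 change of 0.48 (SE 0.11) and a limma adjusted p of 0.0110. Without knockdown replicate 1 the adjusted p of ABCA2 was 0.0721.

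The other 4 organelle members were under 1 RPKM in every library and were not tested. ABCA12, known for lipid loading of lamellar granules in skin, was at 0.0579 and 0.0875 RPKM in wild type and 0.139 and 0.167 RPKM in knockdown. ABCA5 was at 0.246 and 0.209 RPKM against 0.258 and 0.309 RPKM. ABCA4, the retinal flippase, and ABCA10 held the table's floor value in both wild-type libraries and at most 9 steps in a knockdown library, so no fold is given. Of the surfactant genes that work beside ABCA3, LPCAT1 and CTSH were tested and did not pass, with log2 changes of 0.30 and 0.11. Both were higher in knockdown without overlap, as were 34.3% of all tested genes. SFTPD, NAPSA, SLC34A2 and LAMP3 were under 1 RPKM in every library. SFTPD, NAPSA and LAMP3 were higher in both knockdown libraries, as were 38.1% of genes below the level tested, and SLC34A2 overlapped.

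Among exporters of drugs and organic anions, ABCG2 fell and none of the 7 tested members rose, where 7.03% of all tested genes fell and 15.3% rose. With so few genes, these counts are near those shares. ABCG2, the breast cancer resistance protein, pairs with itself and exports many drugs, urate and porphyrins. It lies at chr4:88090264-88231322 on the minus strand. Its level was 9.33 and 7.65 RPKM in wild type and 5.10 and 5.22 RPKM in knockdown, so that the knockdown mean was 60.8% of the wild-type mean. Both knockdown libraries were below both wild-type libraries, the log2 change was -0.62 (SE 0.12), and the limma adjusted p was 0.00586.

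Averaged over the 4 libraries, the 3 highest ABC levels per length were those of ABCC2, ABCC3 and ABCC1, exporters of conjugates, while in wild type ABCF2 lay level with ABCC3 and ABCC1, at 43.1 and 41.6 RPKM. ABCC2, which sends glutathione and glucuronide conjugates out through the apical membrane, was at 86.3 and 75.0 RPKM in wild type and 61.5 and 68.2 RPKM in knockdown. It was lower in both knockdown libraries, with a log2 change of -0.31 (SE 0.11), and did not pass at a limma adjusted p of 0.0657. Without wild-type replicate 2 that p was 0.0286, without wild-type replicate 1 it was 0.255, and with TMM-like factors it was 0.0479. ABCC3, its basolateral counterpart, was at 42.97 and 44.7 RPKM against 42.8 and 43.5 RPKM. ABCC1, the first multidrug resistance-associated protein, was at 43.2 and 42.2 RPKM against 37.7 and 42.96 RPKM. The groups of ABCC3 and ABCC1 overlapped, and their adjusted p were 0.894 and 0.594. ABCC2 was above the other 2 in every library, while the levels of ABCC3 and ABCC1 overlapped within each group.

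ABCC4, an exporter of cyclic nucleotides and prostaglandins, was at 4.24 and 3.32 RPKM in wild type and 2.15 and 2.90 RPKM in knockdown. Both knockdown libraries were lower, the log2 change was -0.44 (SE 0.14), and it did not pass at a limma adjusted p of 0.0550. With quantile normalization, cyclic loess or TMM-like factors, ABCC4 passed, at adjusted p of 0.0150, 0.0188 and 0.0344, and it also passed without wild-type replicate 2 (0.0226) and without knockdown replicate 2 (0.0105). Without wild-type replicate 1 its log2 change was -0.30 (adjusted p 0.217), and without knockdown replicate 1 it was -0.29 (0.320). ABCC5, a further exporter of cyclic nucleotides, was at 2.20 and 2.12 RPKM against 2.42 and 2.49 RPKM. ABCC10, a relative of ABCC1 that exports taxanes, was at 1.82 and 2.02 RPKM against 2.27 and 2.48 RPKM. Both were slightly higher in knockdown without passing, at adjusted p of 0.439 and 0.221. ABCC6 and ABCC11 were under 1 RPKM and their groups overlapped, and ABCC6 can share reads with its near-identical pseudogenes ABCC6P1 and ABCC6P2.

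The enzymes that make the conjugates exported by ABCC proteins and their regulator NRF2 were read beside them. Of 16 tested genes, 9 fell and 2 rose, where 7.03% of all tested genes fell and 15.3% rose. Their median log2 change was -0.36. This list too was chosen with earlier results of these data known, so the counts are a description. SRXN1, which repairs oxidised peroxiredoxin, was at 22.4 and 21.7 RPKM in wild type and 9.39 and 10.1 RPKM in knockdown. HMOX1, which breaks down haem, was at 108 and 123 RPKM against 67.1 and 60.6 RPKM. GCLC, the catalytic subunit of the enzyme that limits glutathione synthesis, was at 33.5 and 28.1 RPKM against 15.0 and 17.2 RPKM. In all 3 the groups were separate, with log2 changes of -1.10, -0.84 and -0.89. MGST2 and GSTM3, which conjugate glutathione, were the genes that rose, by log2 changes of 0.49 and 0.41. NFE2L2, which encodes NRF2, did not pass with a log2 change of -0.22. Of 7 tested xenobiotic and metabolic receptors 1 rose, PPARG, with a log2 change of 0.38. Of 9 tested solute carriers for organic anions and drugs, which often bring in what ABC proteins send out, SLCO3A1 and SLCO4A1 rose and 7 did not pass. SLCO4A1 reached the level tested in knockdown only. The shares of both lists that rose are near the 15.3% of all tested genes that rose.

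**Figure D2:**
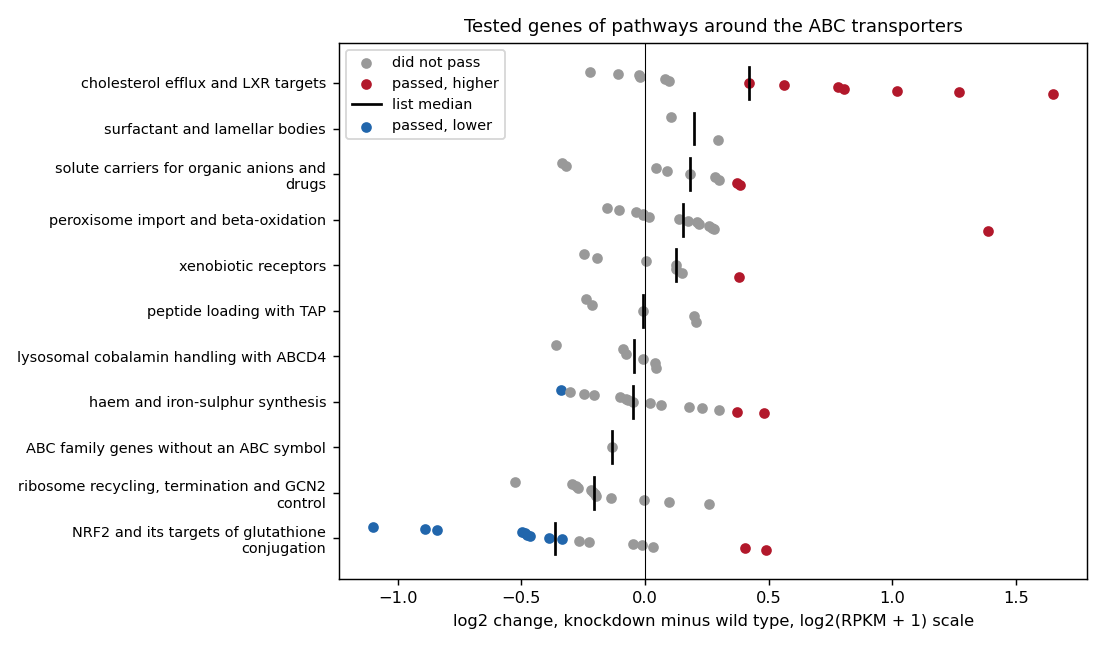
Log2 change, knockdown minus wild type, on the log2(RPKM + 1) scale, of the tested genes in each pathway list around the ABC transporters, with points coloured by call and a bar at each list's median. The median is 0.42 for cholesterol efflux and LXR targets and -0.36 for NRF2 and glutathione genes.

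Splicing was read as PSI, the share of the examined junction among the junctions compared with it. ABCC4 had 1 splice choice, listed as a pair of mirrored events. Exon 20 joins either exon 21 of the full-length form, which has 1325 codons in ABCC4-201, or an early end exon, as in ABCC4-206 and ABCC4-207 with 784 and 859 codons. The bases that the choice puts after exon 20 are shown, from GENCODE v29 (GRCh38), as exon 21 at chr13:95083140-95083290 and as the coding stretch of the early end exon at chr13:95096135-95096179, both on the minus strand. Capitals mark the first and last 3 bases, and those that end the second sequence are its stop codon.
ABCC4 exon 21: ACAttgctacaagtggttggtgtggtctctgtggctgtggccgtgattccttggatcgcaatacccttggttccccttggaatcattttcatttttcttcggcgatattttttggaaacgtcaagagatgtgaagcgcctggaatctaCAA
ABCC4 early end exon: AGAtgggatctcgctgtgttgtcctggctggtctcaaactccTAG
The PSI of the early end exon was 6.06% and 31.8% in wild type and 57.9% and 51.1% in knockdown. The groups did not overlap, but the wild-type libraries lay far apart. The difference was 35.5 points (SE 11.2), with a p of 0.0174 and a limma adjusted p of 0.259, which did not pass. Without wild-type replicate 1 the difference was 22.7 points.

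ABCC2 and ABCC5 each had events that did not pass. In ABCC2, an acceptor inside intron 16 that GENCODE v29 does not list had a PSI of 33.4% and 27.2% in wild type and 43.02% and 48.5% in knockdown, against the junction from exon 16 to exon 17. The knockdown libraries were higher, by 15.5 points, at a limma adjusted p of 0.309. In ABCC5, the junction from exon 2 to exon 3, set against the end exon of a short form, had 66.7% and 66.1% in wild type and 72.1% and 85.7% in knockdown, at an adjusted p of 0.415. Reads into an edge of an ABCC5 intron had 25% and 44.1% against 23.4% and 50%, so their groups overlapped.

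Of the ABCB transporters of mitochondria and lysosomes, ABCB6 rose, ABCB8 and ABCB10 did not pass, and ABCB9 was not tested. ABCB6, known as a porphyrin transporter of mitochondria and of other membranes, lies at chr2:219209766-219219017 on the minus strand. Its level was 3.28 and 3.29 RPKM in wild type and 5.23 and 4.78 RPKM in knockdown. The groups were separate, the log2 change was 0.48 (SE 0.11), and the limma adjusted p was 0.0129. Without knockdown replicate 1 its adjusted p was 0.0965, and in the fit without a filter it was 0.0524.

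ABCB6 also held the largest splicing difference among the ABC events. The examined junction joins exon 1 to exon 3 and so skips exon 2, as in the coding transcript ABCB6-202 with 796 codons against 842 in ABCB6-201. The junction it is set against joins exon 2 to exon 4 and skips exon 3, as in ABCB6-203, which is annotated as a target of nonsense-mediated decay. Exon 2 has 138 bases, a multiple of 3, and exon 3 has 181, which is not. Both are shown from GENCODE v29 (GRCh38), on the minus strand of chr2:219217670-219217807 and chr2:219216652-219216832, with the first and last 3 bases in capitals.
ABCB6 exon 2: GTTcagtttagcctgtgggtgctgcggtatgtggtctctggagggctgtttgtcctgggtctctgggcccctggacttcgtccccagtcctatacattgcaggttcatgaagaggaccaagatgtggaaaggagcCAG
ABCB6 exon 3: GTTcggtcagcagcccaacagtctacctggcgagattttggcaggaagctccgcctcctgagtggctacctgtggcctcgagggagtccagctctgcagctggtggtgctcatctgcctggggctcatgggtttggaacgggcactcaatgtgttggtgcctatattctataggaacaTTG
The PSI of exon 2 skipping was 26.9% and 32.4% in wild type and 90.9% and 90.0% in knockdown. Replicates lay within a few points of each other and the groups were far apart. The difference was 60.8 points (SE 8.44), with a p of 0.000273 and a limma adjusted p of 0.146 over 3744 events, so it did not pass. The PSI compares the skipped forms with each other, and the share of transcripts that keep both exons was not measured by it. A further ABCB6 event, exon 5 skipping against reads into intron 4, had 33.9% and 49.3% in wild type and 100% and 32.7% in knockdown, so the knockdown libraries lay on both sides of the wild type.

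**Figure D3:**
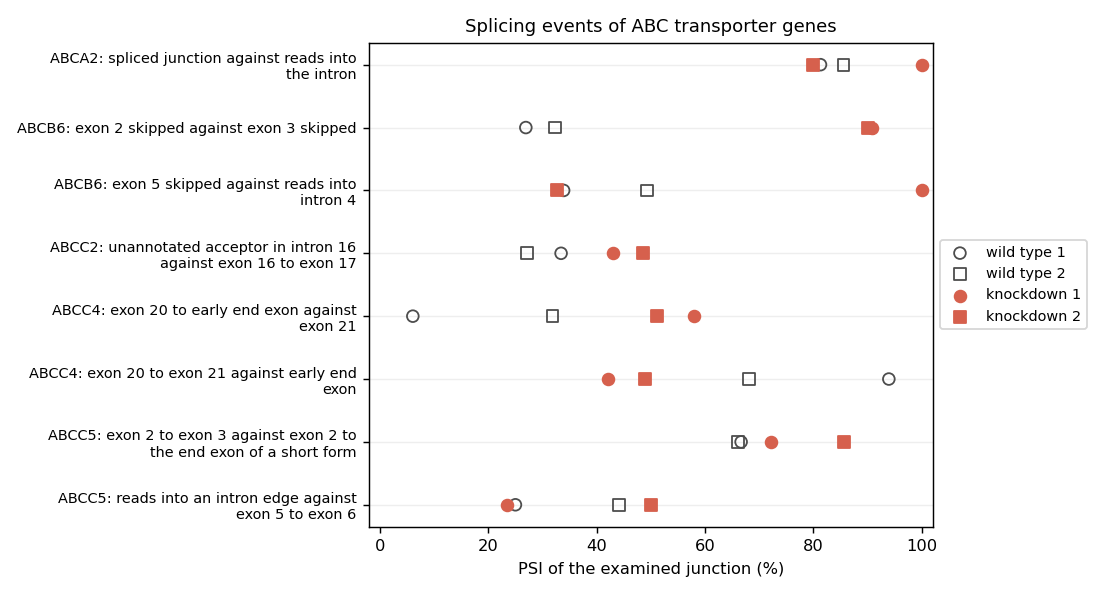
PSI in percent of the examined junction in each library for the 8 splicing events of ABC transporter genes, with open grey symbols for wild type and filled red symbols for knockdown. For exon 2 skipping in ABCB6 the wild-type points are at 26.9% and 32.4% and the knockdown points at 90.9% and 90.0%, while the event of ABCA2 overlaps between groups.

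Over the 8 events, 0 passed the adjusted limma test, where 0.107% of all 3744 tested events did. Without adjustment 3 of 8 events differed by at least 0.1 with p below 0.05, against a background of 18.4%, and 2 of these 3 are the mirrored ABCC4 pair. Groups did not overlap in 5 of 8 events, against 54.2% of all events. These shares are counts of few events and the table lists only events that vary between libraries. The ABCA2 event, a spliced junction set against reads into the intron, had 81.3% and 85.6% in wild type and 100% and 80% in knockdown. The number of reads behind a PSI is unknown.

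The other ABCB transporters of these organelles lay close together between groups. ABCB8, a protein of the inner mitochondrial membrane, was at 8.74 and 9.77 RPKM in wild type and 11.6 and 8.81 RPKM in knockdown. ABCB10, which supports early haem synthesis, was at 8.15 and 7.18 RPKM against 6.60 and 7.42 RPKM. The groups of both overlapped and neither passed. ABCB9, a lysosomal peptide transporter related to TAP, was under 1 RPKM in every library and its groups overlapped too. Of 15 tested genes of haem and iron-sulphur synthesis, UROD and SLC25A37 rose, UROS fell and 12 did not pass, a share near the 22.3% of all tested genes that passed. Their median log2 change was -0.05. TAP1, an ABC protein outside the naming rule that brings peptides to the loading of class I molecules, was at 7.85 and 7.81 RPKM against 7.71 and 6.44 RPKM and did not pass, and 0 of 5 tested peptide loading genes passed in limma, with 1 at an unadjusted p under 0.05, where 35.6% of all tested genes had such a p.

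The ABCD transporters described here, ABCD3 and ABCD4, did not pass. ABCD3, which imports branched-chain acyl-CoA and bile acid precursors, was at 8.68 and 7.27 RPKM in wild type and 6.01 and 6.26 RPKM in knockdown. ABCD4, which moves cobalamin out of lysosomes, was at 4.72 and 4.97 RPKM against 6.25 and 6.35 RPKM. The groups were separate in both, lower in knockdown for ABCD3 and higher for ABCD4, as in 27.3% and 34.3% of all tested genes. Neither passed, at limma adjusted p of 0.0781 and 0.0617. ABCD3 passed without wild-type replicate 2, at 0.0369, was at 0.310 without wild-type replicate 1, and passed with quantile normalization, at the same rounded value. Of 14 tested genes of peroxisome import and beta-oxidation 1 rose, ACSL4, which activates long-chain fatty acids, with a log2 change of 1.39, where 15.3% of all tested genes rose. Of 6 tested genes of cobalamin handling 0 passed in the limma test, with 1 at an unadjusted p under 0.05, against the same 35.6%.

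All 4 soluble ABC ATPases of translation had a log2 change below 0, and 1 of them, ABCF2, passed, where 7.03% of all tested genes fell. ABCE1, ABCF1 and ABCF2 lie at a mean of 20 RPKM or more. In that range 12.7% of all tested genes fell and their median log2 change was -0.08. ABCF2 lies at chr7:151212490-151227230 on the minus strand. Its level was 43.1 and 41.6 RPKM in wild type and 33.7 and 33.3 RPKM in knockdown, so the knockdown mean was 79.1% of the wild-type mean. The log2 change was -0.33 (SE 0.09) with a limma adjusted p of 0.0326. The adjusted p was 0.0903 without wild-type replicate 1, 0.0506 without wild-type replicate 2, 0.163 without knockdown replicate 1 and 0.192 without knockdown replicate 2. It was 0.0533 with quantile normalization and 0.0702 with cyclic loess. ABCF2 has pseudogenes, which may share its reads.

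ABCF1, which promotes translation initiation, was at 34.3 and 35.7 RPKM in wild type and 27.4 and 29.03 RPKM in knockdown. ABCF3, a relative of the yeast regulator GCN20, was at 20.2 and 19.96 RPKM against 16.95 and 16.5 RPKM. Both were lower in knockdown with separate groups, as were 27.3% of all tested genes. Neither passed, at limma adjusted p of 0.0521 and 0.101. With TMM-like factors ABCF1 passed, at 0.0454. ABCE1, which splits ribosomes after termination, was at 30.2 and 20.8 RPKM in wild type and 17.9 and 22.1 RPKM in knockdown. Its wild-type libraries differed from each other by more than the knockdown libraries did, the groups overlapped, and the adjusted p was 0.200. Without wild-type replicate 2 it was 0.00953, and without knockdown replicate 2 it was 0.0419. Without wild-type replicate 1 the log2 change went from -0.32 to -0.06 (adjusted p 0.800), and without knockdown replicate 1 to -0.18 (0.557). Of 12 tested genes of ribosome recycling, termination and GCN2 control 0 passed the limma test, 5 had an unadjusted p under 0.05, near the 35.6% of all tested genes, and the median log2 change was -0.21.

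**Figure D4:**
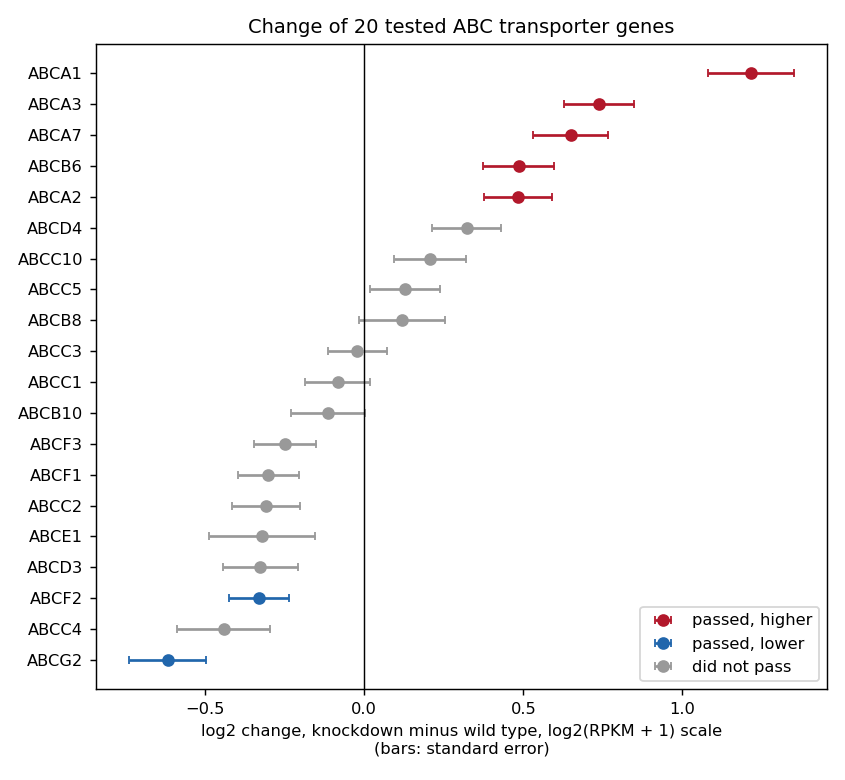
Log2 change with its standard error, knockdown minus wild type on the log2(RPKM + 1) scale, for the 20 tested ABC transporter genes, ordered by size and coloured by call. ABCA1 is highest at 1.22 and ABCG2 lowest at -0.62.

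The ABC genes that rose were mostly those at low level. In the range under 5 RPKM, averaged over the 4 libraries, 4 of 7 tested ABC genes rose and 3 did not pass, where 19.2% of all tested genes rose. ABCA1, among these 4, was tested only through its knockdown mean. From 5 to 20 RPKM, 1 of 7 rose (ABCA2) and 1 fell (ABCG2), where 13.2% of all tested genes rose and 8.61% fell. At 20 RPKM or more, 1 of 6 fell (ABCF2) and 5 did not pass, where 12.7% fell and 9.84% rose. The ABC counts in these upper ranges are near those shares. The median log2 change of all tested genes shifted in the same direction, from 0.10 to -0.00 and -0.08 over the same ranges. Beside it the ABC medians were 0.48, -0.11 and -0.31. The part of level in these differences was not tested.

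**Figure D5:**
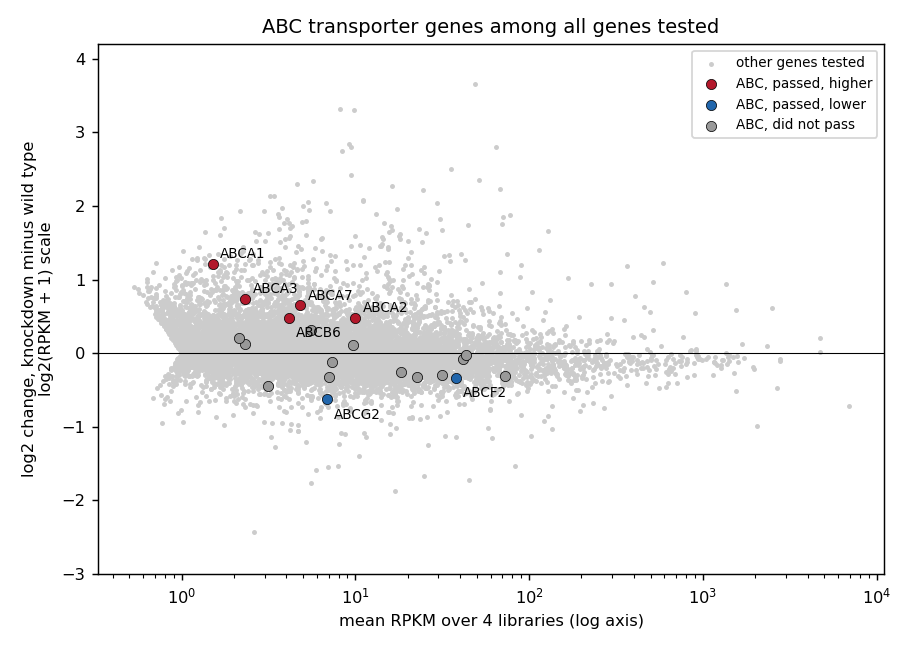
Log2 change, knockdown minus wild type on the log2(RPKM + 1) scale, against mean RPKM over 4 libraries (log axis) for the tested genes in grey and the 20 tested ABC genes in colour by call. ABCA1, ABCA3, ABCA7 and ABCB6 lie under 5 RPKM, and ABCF2 lies above 20 RPKM.

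The 10 ABC genes below the level tested were ABCA4, ABCA5, ABCA10, ABCA12, ABCB9, ABCC6, ABCC8, ABCC11, ABCG1 and ABCG4. In 7 of them both knockdown libraries were higher than both wild-type libraries and in 0 both were lower, against 38.1% and 9.94% of the 6859 genes at such levels. Some of these 7 rest on few steps. ABCA4 had 4 and 3 steps in knockdown and ABCA10 had 9 and 2, and both held the floor value in wild type. The highest of the 10 genes by mean was ABCG1, at 0.478 RPKM over the 4 libraries. ABCC8, the sulphonylurea receptor of potassium channels, was at 0.242 and 0.146 RPKM in wild type and 0.338 and 0.328 RPKM in knockdown. An annotated gene lies on the opposite strand of 17 of the 30 members, among them ABCA1, ABCA2, ABCA3 and ABCG2. Whether counting used the strand is not given in the sources used here, so reads from such pairs cannot be told apart.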

How the data were processed

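Per the labels, polyadenylated RNA of 2 RBM10 wild-type and 2 RBM10 knockdown A549 libraries was made into stranded libraries and read as pairs of 100 bp. Per the submitters' processing notes, STAR 2.6.1 and build hg38 were used. Not given in the sources used here are the counter, annotation, splicing caller and use of strand. Gene values deposited by the authors have the form of RPKM. The unit was inferred: in 15354 of 16350 genes with values off the floor in 2 or more libraries, the values were whole multiples of a step within 1e-10. A floor value stands in place of 0. Only 17 of 980 single-exon coding genes are listed, against 14211 of 18971 with several exons, so values may rest on junction reads. Per the file headers, PSI was deposited as a fraction between 0 and 1, and no read counts accompany it. The ABC members and the pathway lists were chosen with earlier results of these data known.

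Gene IDs were named from a table of gene IDs (16921 matched) and GENCODE v29. ABCA11P, ABCA17P, ABCC6P1 and ABCC6P2, and 1 PSI event of ABCA11P, were left out as pseudogenes. Further genes that meet the naming rule are not reported here. Genes with a group mean of 1 RPKM or more were tested on log2(RPKM + 1) in R 4.3.3 by limma 3.58.1, with a trended prior, two-sided tests and a Benjamini-Hochberg adjusted p under 0.05. PSI was tested with limma in the 3744 events with 4 values, and had to reach the same adjusted p with groups at least 0.1 apart. Both fits ran on the whole table and were tested on simulated data. Each ABC gene could be named, with full statistics for those that passed, and up to 4 genes of each pathway list that passed, lowest adjusted p first, with genes that pair with ABC proteins. The nuclear receptors, SCARB1, NFE2L2, MGST2, GSTM3 and the surfactant genes lie outside this rule and were named after their values were seen. Alternatives were another pseudocount, filter, scaling, trend setting, block, PSI scale and leaving out each library.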

Additional observations from a re-analysis of the deposited data

How the results depend on the processing

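ABCA1, ABCA3, ABCA7 and ABCG2 passed in every alternative in which they were tested, and ABCA1 was not tested at a filter of 3 RPKM. ABCA2 passed in 12 of 13, ABCB6 in 11 of 13 and ABCF2 in 6 of 13. The count of ABC genes that rose, 5 as reported, ranged from 3 (without knockdown replicate 1) to 5 when 1 library was left out. The count that fell, 2 as reported, was 5 with TMM-like factors and ranged from 1 (without wild-type replicate 1 or knockdown replicate 1) to 5 (without wild-type replicate 2). Pathway genes that rose, 15 as reported, were 9 without a filter and 8 to 11 with a library left out, and those that fell, 10 as reported, were 5 without a filter. Names of wild-type and knockdown replicates 1 and 2 share only a number. Same-numbered deviations had a correlation of -0.44 in expression and -0.04 in PSI, so no pairing was taken from them. With a replicate block, 1 ABC gene fell, 9 pathway genes rose, and 1 ABC event passed, ABCB6 exon 2 skipping at a limma adjusted p of 0.00216. With crossed replicate numbers as the block, chosen after seeing the data, 4196 genes were called, 8 ABC genes fell, and 26 pathway genes rose and 27 fell.

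Changes of sign fell on genes and events that did not pass. For ABCC3 the log2 change was 0.032 with quantile normalization and 0.048 with cyclic loess, and for ABCC5 it was -0.0012 with quantile normalization. With 1 library left out, log2 changes ran from -0.18 to 0.0080 for ABCC1 (positive without knockdown replicate 1), from -0.050 to 0.0063 for ABCC3 and from -0.063 to 0.30 for ABCB8. PSI differences ran from -3.44 to 16.6 points for ABCA2, from -8.94 to 58.4 points for ABCB6 exon 5 and from -11.2 to 15.4 points for the ABCC5 intron edge. The cause was not tested. Where a group kept 1 library, it was assumed to vary like the other. Wild-type ABCG1 and ABCG4 rest on few reads, and PSI depth is unknown.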
